A study of Mus musculus with 36 samples.

Results

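The transcripts described here encode 8 mouse proteins that bind AU-rich or other elements in the 3′ UTRs of mRNAs: Zfp36, Zfp36l1, Zfp36l2, Elavl1, Khsrp, Pum2, Rc3h1 and Rc3h2. They were taken as a list of gene names, and all 8 of them were found among the 25239 genes of the P-body and cytoplasm table, the 25229 genes of the polysome table and the 48440 genes of the Ago2 knockout table. RNA was measured in 36 libraries from 16 groups. P-bodies, cytoplasmic granules of untranslated mRNA and repressor proteins, were labelled with a GFP-LSM14A transgene driven by the EF1a promoter. Per the study's methods, a lysate cleared of nuclei was centrifuged, and its resuspended pellet is the cytoplasmic fraction. P-bodies were sorted as particles from this fraction and compared with the unsorted fraction, which still holds P-bodies. Cytoplasm here means that pellet, which leaves out the soluble supernatant. The comparison had 2 libraries per fraction, in naive embryonic stem (ES) cells (v6.5 line, 2i and LIF) and primed ES cells (the same line in activin A and bFGF). Mouse embryonic fibroblasts (MEFs) were compared likewise, as were MEFs on day 3 of reprogramming, as a control or with a Nudt21 shRNA. The last were naive ES cells with a CRISPR knockout of Ago2, derived as single-cell clones. Per the study's methods, MEFs for reprogramming carried a doxycycline-inducible OKSM reprogramming cassette, an rtTA transactivator and an EGFP reporter under Pou5f1 elements. Reprogramming was induced with doxycycline in medium with LIF and ascorbic acid. All of these cells carried the GFP-LSM14A transgene. Polysome and total RNA were compared with 3 libraries each in naive ES cells whose DDX6 carries a homozygous FKBP12 F36V degron (single-cell clones of GFP-LSM14A cells). Per the study's methods, both groups carried the degron. In the group called degron cells here, dTAG-13 was added for hours, not days, to degrade DDX6. Control cells were left without it, and the study's figures label them untreated (DMSO). The labels number the libraries of a group without saying what separates them. The study describes its replicates as biological.

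The 8 proteins read short sequences in 3′ UTRs and change how long an mRNA lasts and how well it is translated. ZFP36 (tristetraprolin), ZFP36L1 and ZFP36L2 are zinc finger proteins that bind UAUUUAU-type AU-rich elements and recruit deadenylases. KHSRP binds AU-rich mRNAs through KH domains and promotes their decay, whereas ELAVL1 (HuR) binds U- and AU-rich elements and usually stabilises its targets. PUM2 is a Pumilio protein that recruits deadenylases to Pumilio elements, and RC3H1 and RC3H2 (Roquin-1 and Roquin-2) bind stem-loop decay elements. P-bodies hold DDX6, decapping factors and many mRNAs of regulatory proteins, and mRNAs of this class are often under the same type of control that their proteins exert.

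Because the proteins read AU-rich and Pumilio elements, the 3′ UTRs of their own mRNAs were searched for the same letters, on the sense strand of the longest coding transcript of each gene. The AU-rich nonamer TTATTTATT was present in 6 of the 8 3′ UTRs, against 7.58% of 20813 mouse 3′ UTRs, whose median length is 940 bases. Among 3′ UTRs of similar length (0.8 to 1.25 times), the share was 4.31% for Zfp36, 9.83% for Zfp36l1, 9.71% for Zfp36l2, 17.7% for Elavl1, 22.1% for Rc3h2 and 27.9% for Rc3h1. One 25-base window per gene is given with the element in capitals, read 5′ to 3′ from the mm10 genome. Khsrp had no nonamer and no TATTTAT heptamer, and the window shown is its single ATTTA pentamer. The Pum2 window holds its single heptamer.
Zfp36, chr7:28376953-28376977, minus strand: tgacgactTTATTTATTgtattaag
Zfp36l1, chr12:80108169-80108193, minus strand: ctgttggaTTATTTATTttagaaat
Zfp36l2, chr17:84184916-84184940, minus strand: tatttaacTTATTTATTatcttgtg
Elavl1, chr8:4285790-4285814, minus strand: catgaaaaTTATTTATTtatttatt
Rc3h1, chr1:160970045-160970069, plus strand: tttactcaTTATTTATTgagatgag
Rc3h2, chr2:37373289-37373313, minus strand: aagacattTTATTTATTttactctg
Pum2, chr12:8749818-8749842, plus strand: aagcaaaacTATTTATtgactttct
Khsrp, chr17:57021588-57021612, minus strand: aatagcaagaATTTAacctctgccc

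The Pumilio element TGTANATA was present in the 3′ UTRs of 3 of the 8 genes, against 23.3% of all 3′ UTRs. Pum2, whose protein binds this element, held 2 copies, and 14.4% of 3′ UTRs of similar length held as many, as did 45.9% for the 2 copies of Rc3h1 and 63.0% for the 1 copy of Rc3h2. Both Pum2 copies are shown with 1 of 2 Rc3h1 copies and the Rc3h2 copy.
Pum2, chr12:8750157-8750180, plus strand: tatagagaTGTATATAgaattata
Pum2, chr12:8750410-8750433, plus strand: tacagaatTGTATATActtataat
Rc3h1, chr1:160969829-160969852, plus strand: gctatatcTGTATATAtatcgggt
Rc3h2, chr2:37373490-37373513, minus strand: tgatacgtTGTAAATAatacctga

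The number of elements per 3′ UTR followed its length in part. The Rc3h2 3′ UTR (5331 bases) held 25 ATTTA pentamers, a number reached by 1.81% of 3′ UTRs of similar length. Elavl1 (4218 bases) held 17 pentamers and 8 heptamers, and 0.335% of 3′ UTRs of its length held as many heptamers. Rc3h1 (7181 bases) held 20 pentamers and 2 heptamers, which 20.4% and 47.1% of 3′ UTRs of its length reached. The 3′ UTRs of the ZFP36 family were shorter (774, 1835 and 1822 bases for Zfp36, Zfp36l1 and Zfp36l2), yet each held 3 heptamers, which 1.19%, 4.14% and 4.11% of 3′ UTRs of similar length did. Heptamers contain a pentamer and nonamers contain a heptamer, so these counts overlap, and a match of letters is a description and not a binding site.

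Libraries held 6769727 to 31185799 reads in the P-body and cytoplasm table, 15624342 to 17486206 in the Ago2 knockout table and 13308776 to 29362187 in the polysome table. Nudt21 was at 5.01 to 5.96 CPM (read counts scaled to the library total) in the 4 knockdown libraries and at 89.1 to 115 CPM in the 4 day 3 control libraries. Ago2 was at 2.57 to 4.52 CPM in its knockout; Ddx6 mRNA was at 186 to 199 CPM in total RNA of degron cells and 208 to 238 CPM in control cells, which does not check the labels because the degron acts on protein. The 9 pluripotency markers summed to 6378 to 7647 CPM in naive cytoplasm and 41.4 to 46.7 CPM in MEF cytoplasm. The 6 markers of lung epithelium summed to 6.08 and 89.7 CPM in the MEF P-body libraries and to 0 in MEF cytoplasm, and their part in the MEF results was not tested. The 2 Ago2 knockout cytoplasm libraries stood apart from each other: the ribosomal RNA locus Rn18s-rs5 took 6.23% of reads in replicate 1 and 24.0% in replicate 2. Gm42418, which overlaps ribosomal RNA, took 10.2% and 2.63%, and the 2 loci together took 16.5% and 26.6%. Spearman's rho between these 2 libraries was 0.901 over genes with a mean of at least 10 CPM. It was also low between the libraries of naive cytoplasm (0.955) and of day 3 control P-bodies (0.960). In every other group it was 0.982 or higher.

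A gene was called when its adjusted p was under 0.05 in edgeR, and log2 fold changes are given ± SE. In naive ES cells 6 of the 8 transcripts were called between P-bodies and cytoplasm, 5 higher and 1 lower, where 38.0% of the 15630 genes tested were called (22.6% higher and 15.4% lower). Primed ES cells gave 5 calls, 4 higher and 1 lower, against 50.8% of genes (26.5% and 24.2%). In MEFs 5 were called, 2 higher and 3 lower, against 55.3% (26.6% and 28.7%). On day 3 of reprogramming the control gave 1 call, which was lower, against 0.646% of genes (0.45% lower), and the Nudt21 knockdown gave 4 calls, all lower, against 21.9% (9.04% higher and 12.8% lower). The share of all genes called in the day 3 control changed with the fit, to 13.3% with DESeq2, 16.9% with all groups of the table in 1 fit, and 57.0% and 31.8% without P-body replicate 1 and 2. In the Ago2 knockout 2 were called, 1 higher and 1 lower, against 6.51% (5.47% higher and 1.05% lower). The median log2 fold change over the 8 transcripts was 1.06 in naive cells, where it was −0.06 over all genes, and 0.15, 0.01, −0.01, −0.39 and 0.12 in primed cells, MEFs, day 3 control, day 3 Nudt21 knockdown and Ago2 knockout, where it was between −0.01 and 0.04 over all genes.

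**Figure D1:**
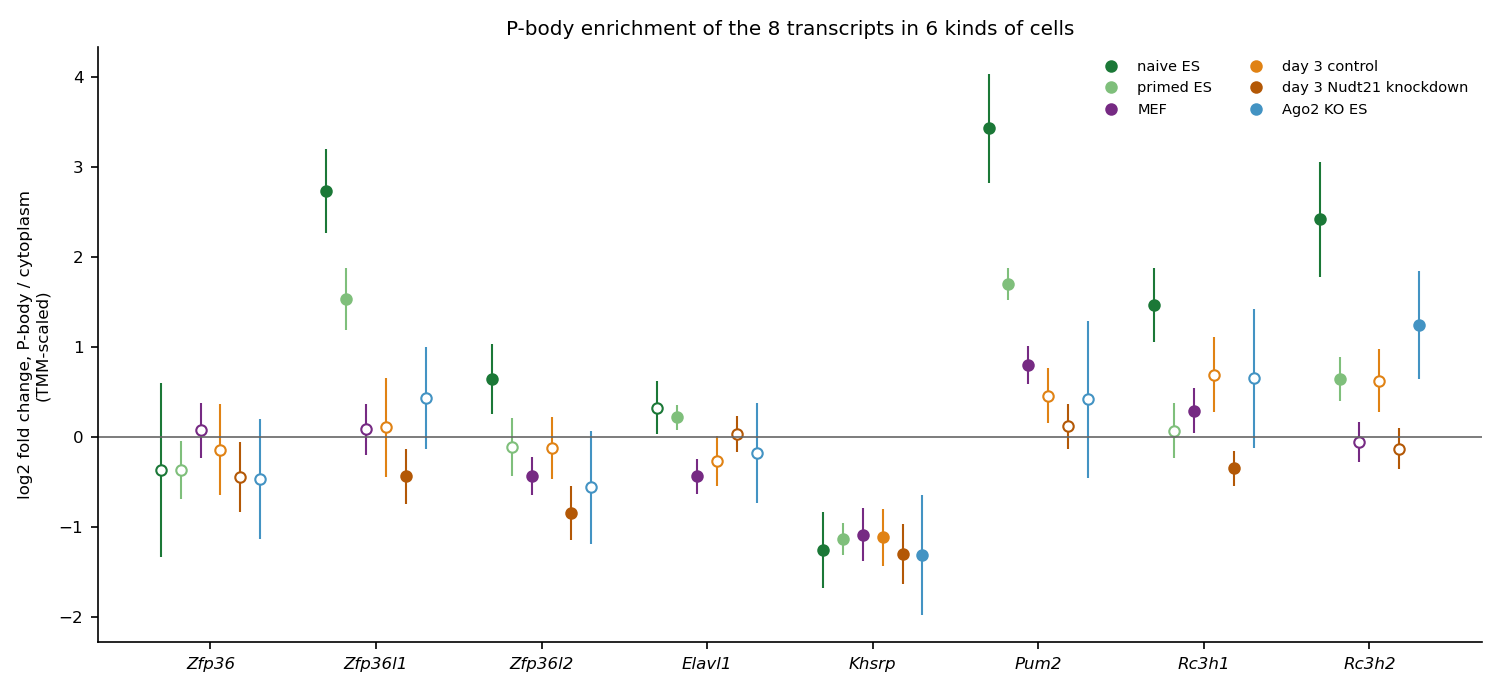
The log2 fold change of each transcript in P-bodies over cytoplasm, by cell type, with bars for the 95% interval of the edgeR fit; filled points have an adjusted p under 0.05 and open points do not. Khsrp lies between −1.31 and −1.08 in all 6 cell types, whereas Pum2 runs from 0.12 in the Nudt21 knockdown to 3.43 in naive ES cells.

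Khsrp (chromosome 17, 57021051 to 57031522, minus strand) was lower in P-bodies in every cell type, with fitted log2 fold changes from −1.31 to −1.08. In naive cells it was at 44.9 and 44.9 CPM in P-bodies, against 139.5 and 109 CPM in cytoplasm. In primed cells it was at 46.6 and 45.9 CPM in P-bodies, against 100.2 and 107 CPM in cytoplasm. In neither cell type did the fractions overlap. MEFs had lower levels in both fractions, 18.8 and 23.7 CPM in P-bodies and 43.3 and 45.8 CPM in cytoplasm. On day 3 the control had 37.8 and 34.6 CPM in P-bodies and 76.9 and 81.3 CPM in cytoplasm, and the Nudt21 knockdown had 36.9 and 49.5 CPM against 95.4 and 118 CPM. The Ago2 knockout had 16.6 and 26.0 CPM in P-bodies and 45.6 and 57.0 CPM in cytoplasm. Every P-body library was thus below both cytoplasm libraries of its cell type.

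The log2 fold changes of Khsrp were −1.25 ± 0.17 in naive cells (edgeR adjusted p = 0.00382), −1.13 ± 0.08 in primed cells (2.33e-07) and −1.08 ± 0.13 in MEFs (1.09e-04). They were −1.11 ± 0.13 in the day 3 control (0.0495), −1.30 ± 0.15 in the Nudt21 knockdown (4.99e-04) and −1.31 ± 0.30 in the Ago2 knockout (0.0341). It was the only one of the 8 transcripts called in all 6 comparisons. The difference between naive and primed cells was −0.26 ± 0.19 with a 95% interval of −0.70 to 0.18. That between naive cells and MEFs was −0.36 ± 0.23 (−0.86 to 0.15), and neither was called. Without naive cytoplasm replicate 2 these differences were −0.45 and −0.55. The day 3 control call was lost without cytoplasm replicate 2 (adjusted p = 0.0888), and the Ago2 knockout call was lost without P-body replicate 1 (0.515) or 2 (0.0701) and with DESeq2's size factors (0.0549).

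Pum2 (chromosome 12, 8674134 to 8752581, plus strand) had the largest P-body enrichment of the 8 in naive and primed cells and in MEFs. In naive cells it was at 188 and 189 CPM in P-bodies, against 15.1 and 25.9 CPM in cytoplasm. In primed cells it was at 131 and 128 CPM against 40.2 and 41.0 CPM, and in MEFs at 132 and 124 CPM against 71.4 and 73.8 CPM. The order of the 3 cell types came more from the cytoplasm than from the P-bodies, since the cytoplasm mean rose from 20.5 to 72.6 CPM from naive cells to MEFs while every P-body library of these cells stayed between 124 and 189 CPM. On day 3 the control had 73.8 and 72.7 CPM in P-bodies and 55.7 and 51.8 CPM in cytoplasm, also without overlap. In the Nudt21 knockdown (70.5 and 60.1 CPM against 62.8 and 57.9 CPM) and the Ago2 knockout (131 and 174 CPM against 71.2 and 146 CPM) the fractions overlapped.

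The enrichment of Pum2 was 10.8-fold in naive cells (log2 fold change 3.43 ± 0.24, edgeR adjusted p = 5.73e-04), with log2 fold changes of 1.70 ± 0.08 in primed cells (5.11e-09) and 0.80 ± 0.09 in MEFs (7.42e-05). It was 0.46 ± 0.13 in the day 3 control (0.112), 0.12 ± 0.11 in the Nudt21 knockdown (0.495) and 0.42 ± 0.39 in the Ago2 knockout (0.555), none of them called. In the day 3 control it was called by DESeq2 (adjusted p = 0.0440), and without P-body replicate 1 (1.26e-05) or 2 (8.16e-05) in edgeR. Without cytoplasm replicate 2, its log2 fold change in that knockout was 1.105 and was called (edgeR adjusted p = 0.0102), in a fit where 13.2% of all genes were called.

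The Roquin transcripts Rc3h1 (chromosome 1, 160906418 to 160974978, plus strand) and Rc3h2 (chromosome 2, 37370069 to 37422903, minus strand) were both higher in P-bodies of naive cells. Rc3h2 was at 59.7 and 61.7 CPM in naive P-bodies, against 9.55 and 17.0 CPM in cytoplasm, a log2 fold change of 2.42 ± 0.25 (edgeR adjusted p = 0.00169). Rc3h1 was at 22.5 and 22.1 CPM against 8.61 and 10.2 CPM, a log2 fold change of 1.47 ± 0.17 (0.00210). In primed cells only Rc3h2 of the pair was called. There Rc3h2 was at 49.0 and 58.5 CPM in P-bodies and 33.8 and 36.4 CPM in cytoplasm (0.65 ± 0.11, adjusted p = 3.74e-04), whereas Rc3h1, at 19.99 and 23.6 CPM against 23.3 and 19.3 CPM, overlapped between fractions (0.07 ± 0.14, 0.701).

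In MEFs Rc3h1 had the higher fitted value of the pair, and the difference between the pair was not tested. Rc3h1 was at 113 and 123 CPM in MEF P-bodies and 86.4 and 103 CPM in cytoplasm, a log2 fold change of 0.30 ± 0.11 (edgeR adjusted p = 0.0441) that was no longer called without P-body replicate 2 (0.0505) or either cytoplasm library (0.353 and 0.0658), or with all groups of the table in 1 fit (0.123). Rc3h2, at 140.5 and 128 CPM against 129 and 145 CPM, overlapped (−0.05 ± 0.10, 0.699). On day 3 of control reprogramming both lay above cytoplasm without overlap: Rc3h1 was at 67.4 and 81.1 CPM against 50.9 and 42.0 CPM, and Rc3h2 at 69.5 and 80.8 CPM against 49.5 and 48.8 CPM. Their log2 fold changes of 0.70 ± 0.17 and 0.63 ± 0.15 were not called by edgeR (adjusted p = 0.0988 and 0.0869) but were by DESeq2 (0.00700 and 0.00851), without either P-body library, and in edgeR with all groups of the table in 1 fit (0.00296 and 0.0164).

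In the Nudt21 knockdown the Roquin transcripts were not higher in P-bodies. The study reports that 3′ UTRs were shorter across genes after this knockdown. The counts used here are per gene and do not separate isoforms, and which 3′ UTR elements remained was not tested. Rc3h1 was at 121 and 123 CPM in P-bodies and 155 and 155 CPM in cytoplasm, a log2 fold change of −0.34 ± 0.09 (edgeR adjusted p = 0.0201) that was lost without either cytoplasm library (0.160 and 0.182) and with all groups of the table in 1 fit (0.109). Rc3h2 was at 70.9 and 62.7 CPM against 72.2 and 74.6 CPM (−0.13 ± 0.10, 0.432). In the Ago2 knockout Rc3h2 was at 48.9 and 57.9 CPM in P-bodies and 19.1 and 24.6 CPM in cytoplasm, a log2 fold change of 1.24 ± 0.26 (0.0276), lost without P-body replicate 1 (0.139) or 2 (0.229) and with DESeq2's size factors (0.0538). Rc3h1 in the same cells was at 16.2 and 17.9 CPM against 7.37 and 13.5 CPM (0.65 ± 0.34, 0.280), with a call in the fit with a replicate block (0.72, 0.0177, where 24.9% of all genes were called) and without cytoplasm replicate 2 (1.22, 0.00659).

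**Figure D2:**
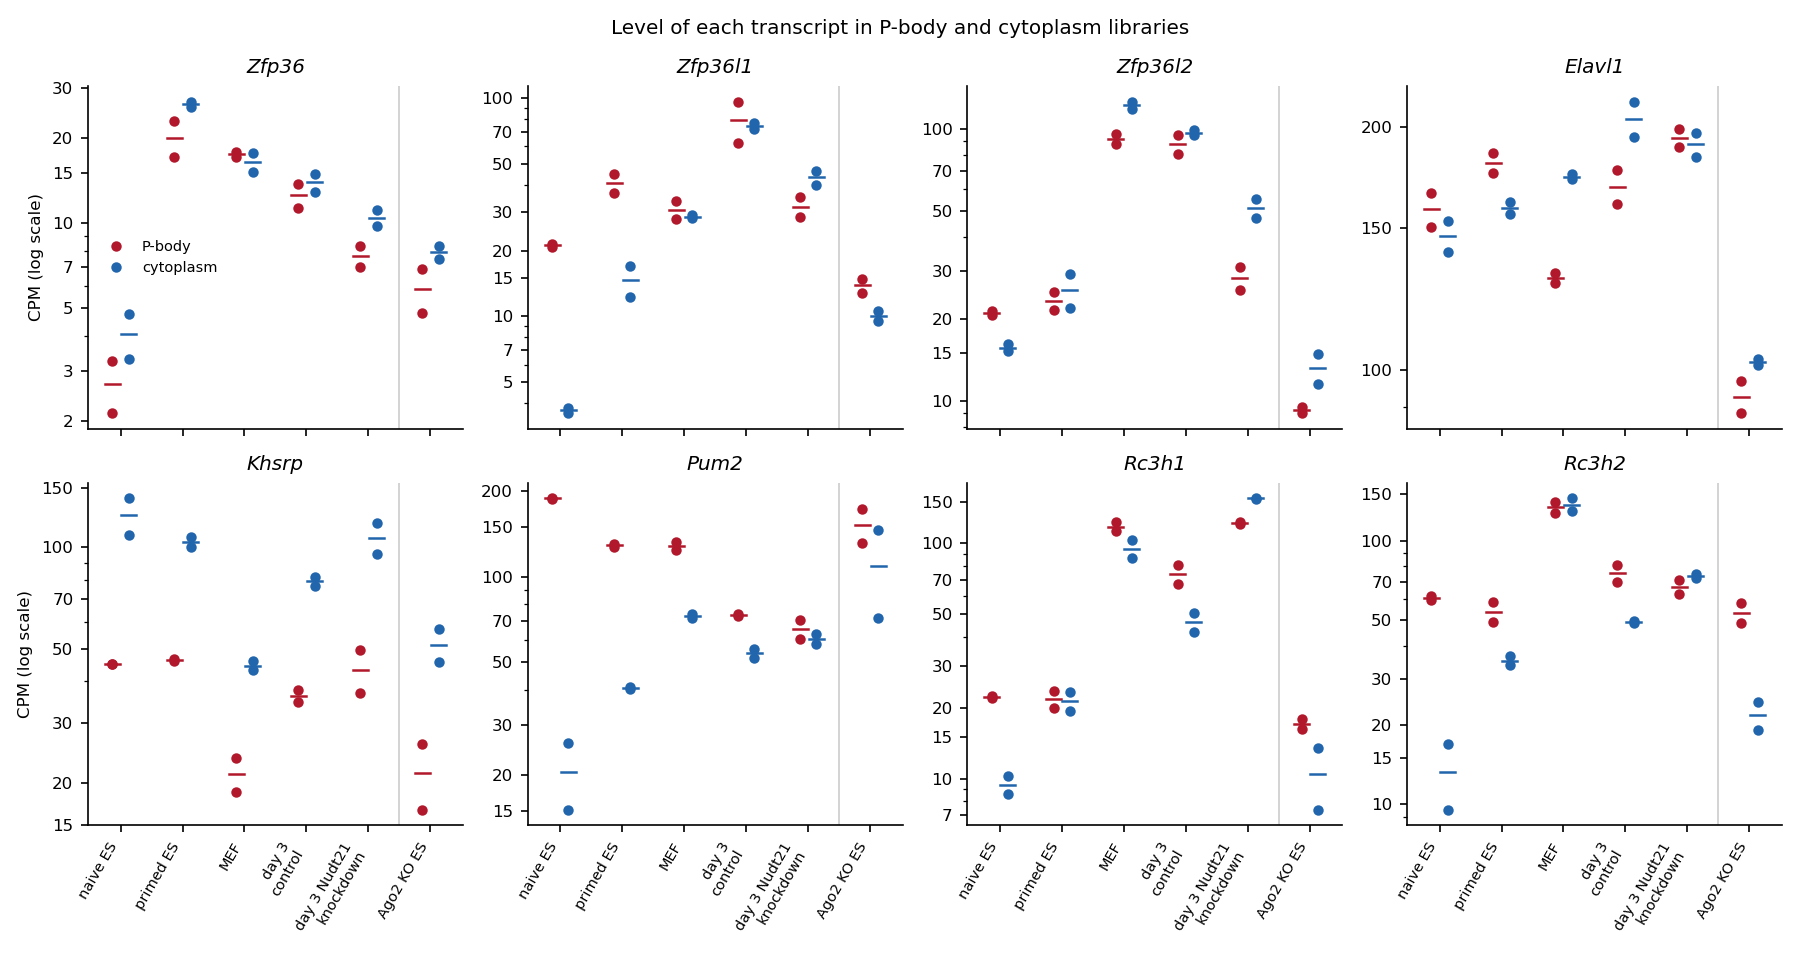
CPM of each transcript on a log axis in the 2 P-body (red) and 2 cytoplasm (blue) libraries of each cell type, with a dash for the mean; the Ago2 knockout, right of the grey line, comes from a separate table. Khsrp P-body points lie below the cytoplasm points in every cell type, and the Pum2, Zfp36l1 and Rc3h2 gaps are widest in naive ES cells.

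The 3 members of the ZFP36 family did not behave alike. Zfp36l1 (chromosome 12, 80107754 to 80113013, minus strand) was at 20.8 and 21.5 CPM in naive P-bodies, against 3.60 and 3.81 CPM in cytoplasm, a 6.64-fold difference (log2 fold change 2.73 ± 0.19, edgeR adjusted p = 5.35e-04). In primed cells it was at 36.8 and 45.0 CPM against 17.0 and 12.2 CPM (1.53 ± 0.16, 4.60e-06). In MEFs its levels overlapped, with 27.8 and 33.8 CPM against 29.0 and 28.3 CPM (0.09 ± 0.12, 0.577). It was therefore enriched in both ES cell states and not called in fibroblasts.

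On day 3 Zfp36l1 varied most between libraries, with 62.2 and 96.4 CPM in control P-bodies on either side of the 72.5 and 76.5 CPM in cytoplasm. Its log2 fold change of 0.11 ± 0.23 turned to −0.27 without P-body replicate 2 (edgeR adjusted p = 0.0224) and rose to 0.41 without replicate 1 (2.99e-05), so 1 library set its direction. In the Nudt21 knockdown it was lower in P-bodies, at 28.4 and 35.3 CPM against 40.1 and 46.4 CPM (−0.43 ± 0.14, 0.0468). That call was lost without P-body replicate 1 (0.0868) or either cytoplasm library (0.0943 and 0.355), and with all groups of the table in 1 fit (0.151). The Ago2 knockout gave 12.8 and 14.9 CPM against 10.5 and 9.47 CPM (0.44 ± 0.25, 0.327).

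Zfp36l2 (chromosome 17, 84183931 to 84187947, minus strand) was slightly higher in naive P-bodies and lower in P-bodies of MEFs and of the Nudt21 knockdown. Naive P-bodies had 20.7 and 21.3 CPM and cytoplasm 16.1 and 15.2 CPM, a log2 fold change of 0.64 ± 0.15 (edgeR adjusted p = 0.0253) that was lost without either P-body library (0.225 and 0.249). MEF P-bodies had 88.1 and 95.4 CPM and cytoplasm 126 and 118 CPM (−0.43 ± 0.09, 0.00382), lost without either cytoplasm library (0.109 and 0.0522). The largest fall was in the Nudt21 knockdown, where P-bodies had 25.5 and 31.0 CPM and cytoplasm 46.9 and 55.0 CPM (−0.84 ± 0.14, 0.00254). Primed cells (21.5 and 25.04 CPM against 21.9 and 29.2 CPM) overlapped and the day 3 control (80.4 and 95.0 CPM against 94.7 and 98.4 CPM) overlapped, with log2 fold changes of −0.11 ± 0.15 and −0.12 ± 0.14, and the latter was −0.27 and called without P-body replicate 2 (0.0106). In the Ago2 knockout it was at 9.47 and 9.04 CPM against 11.5 and 14.9 CPM (−0.56 ± 0.28, adjusted p = 0.259), and −0.91 without cytoplasm replicate 1 (0.00987), where 34.6% of all genes were called.

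Zfp36 (chromosome 7, 28376784 to 28380253, minus strand) was called in none of the 6 comparisons by edgeR or DESeq2 with the filter used here (unadjusted p = 0.0309 in primed cells and 0.0279 in the Nudt21 knockdown, over 0.05 elsewhere), and its log2 fold changes lay between −0.47 and 0.07. It was at 2.14 and 3.26 CPM in naive P-bodies, from 23 and 41 reads, and at 4.78 and 3.32 CPM in cytoplasm, so the depth there left a wide error (−0.36 ± 0.39, edgeR adjusted p = 0.493). In primed cells it was at 17.1 and 22.9 CPM in P-bodies, below the 26.9 and 25.8 CPM of cytoplasm (−0.36 ± 0.15, 0.0589), and it was called lower there with edgeR's own filter on low counts (−0.37, 0.0484) and without P-body replicate 2 (−0.59, 0.00906). In MEFs (17.2 and 17.8 CPM against 15.2 and 17.7 CPM) and the day 3 control (11.3 and 13.7 CPM against 14.96 and 12.9 CPM) the fractions overlapped, and in the Nudt21 knockdown (6.97 and 8.29 CPM against 11.1 and 9.74 CPM) they did not (−0.44 ± 0.17, 0.0946), with a call without P-body replicate 2 (−0.56, 0.0285). The Ago2 knockout had 4.80 and 6.86 CPM in P-bodies and 8.29 and 7.49 CPM in cytoplasm (−0.47 ± 0.30, 0.375).

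Elavl1 (chromosome 8, 4285382 to 4325413, minus strand) varied less between cell types than any of the 8 other than Khsrp and Zfp36, and its direction differed between cell types. In primed cells it was at 176 and 186 CPM in P-bodies and 156 and 161 CPM in cytoplasm, a log2 fold change of 0.22 ± 0.06 (edgeR adjusted p = 0.0120) that was lost without P-body replicate 2 (0.149) and with all groups of the table in 1 fit (0.108). In MEFs it was at 128 and 132 CPM against 173 and 175 CPM (−0.44 ± 0.09, 0.00196), lost without either cytoplasm library (0.0582 and 0.0579). Naive cells (151 and 166 CPM against 153 and 140.1 CPM; 0.33 ± 0.12, 0.0808) and the Nudt21 knockdown (199 and 189 CPM against 184 and 197 CPM; 0.03 ± 0.09, 0.840) overlapped. The day 3 control (177 and 161 CPM against 215 and 195 CPM; −0.26 ± 0.12, 0.224) and the Ago2 knockout (88.4 and 96.7 CPM against 101 and 103 CPM; −0.18 ± 0.25, 0.711) were lower in both P-body libraries without a call. It was called without either cytoplasm library in naive cells (edgeR adjusted p = 9.55e-12 and 4.07e-04, where 62.9% and 66.1% of all genes were called) and without either P-body library in the day 3 control (1.36e-04 and 0.0109). With all groups of the table in 1 fit it was called in both (0.0197 and 0.0487).

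The enrichments themselves were compared between cell types with an interaction term. Between naive and primed cells 4 of the 8 transcripts differed, against 25.3% of 17199 genes (13.9% more and 11.4% less enriched), and all 4 were more enriched in naive cells: Rc3h2 by 1.63 ± 0.29 on the log2 scale (edgeR adjusted p = 0.00433), Pum2 by 1.58 ± 0.25 (0.00245), Rc3h1 by 1.26 ± 0.23 (0.00442) and Zfp36l1 by 1.06 ± 0.27 (0.0211). The Zfp36l1 difference was lost without any 1 of 4 libraries (naive P-body 1 or 2, primed P-body 1 and primed cytoplasm 1; adjusted p = 0.0520 to 0.0788), and without 1 cytoplasm library Khsrp (naive replicate 2; −0.45, 0.00498) and Zfp36l2 (naive replicate 1, 0.69, or primed replicate 1, 0.91) were called as well, the latter also with all groups of the table in 1 fit (0.73, 0.0269). Between naive cells and MEFs 6 differed, against 41.3% of genes (21.5% more and 19.8% less enriched), again all more enriched in naive cells, from Zfp36l1 (2.45 ± 0.23, 3.06e-05) and Pum2 (2.43 ± 0.26, 6.19e-05) to Elavl1 (0.58 ± 0.15, 0.0114), whose call was lost without naive P-body replicate 2 (0.0686). Khsrp was called without naive cytoplasm replicate 2 (−0.55, 0.0275). These comparisons share the naive libraries.

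During reprogramming 1 of the 8 enrichments differed between the day 3 control and MEFs, against 14.7% of genes (9.58% more and 5.13% less enriched): Rc3h2 was more enriched on day 3 by 0.72 ± 0.18 (edgeR adjusted p = 0.0227). This call was lost without any 1 of 5 libraries (adjusted p = 0.0771 to 0.145: MEF P-body 2 and both cytoplasm libraries of MEFs and of day 3), and Zfp36l2 was called without day 3 P-body replicate 1 (0.41, 0.0424). Between the Nudt21 knockdown and the day 3 control no transcript of the 8 was called by edgeR, where 0.0118% of 16973 genes were, and 4 had an unadjusted p under 0.05. The largest of these differences was that of Rc3h1, which was less enriched in the knockdown by −1.01 ± 0.19 (95% interval −1.43 to −0.59, adjusted p = 0.671). DESeq2 called Rc3h1 (adjusted p = 0.00235) and 0.153% of all genes, as did edgeR with no filter on low counts (3.95e-04, 0.299% of genes). Without day 3 control P-body replicate 1, edgeR called 4 of the 8, Rc3h1 (−1.16), Rc3h2 (−0.85), Zfp36l2 (−0.83) and Zfp36l1 (−0.81), but in that fit 2184 of all 16763 genes were called.

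The levels in cytoplasm alone were also compared between cell types. In bulk RNA, fewer cells of a type and less RNA per cell cannot be told apart. Per kilobase of transcript, Khsrp (31.2 ± 5.4 CPM per kb, mean ± SD, n = 2) and Elavl1 (25.5 ± 1.6) were the highest of the 8 in naive cytoplasm, and the Khsrp libraries (35.1 and 27.4) lay just above those of Elavl1 (26.7 and 24.4). Zfp36l2 (4.44 ± 0.18) and Pum2 (3.25 ± 1.2), within 1 SD of each other, followed, and Rc3h2 (1.49 ± 0.59), Zfp36 (1.45 ± 0.37), Zfp36l1 (1.24 ± 0.049) and Rc3h1 (0.855 ± 0.10) were the lowest. In MEF cytoplasm the order was Zfp36l2 (34.5 ± 1.5), Elavl1 (30.2 ± 0.29), Rc3h2 (15.3 ± 1.2), Pum2 (11.5 ± 0.27), Khsrp (11.2 ± 0.46), Zfp36l1 (9.58 ± 0.17), Rc3h1 (8.62 ± 1.1) and Zfp36 (5.89 ± 0.62). Pum2 and Khsrp, and Zfp36l1 and Rc3h1, lay within 1 SD of each other there.

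All 8 transcripts differed between naive and MEF cytoplasm, against 71.8% of genes (35.9% lower), and 7 of them were lower in naive cells. Rc3h2 was 12.4-fold lower (log2 fold change −3.63 ± 0.26, edgeR adjusted p = 1.85e-04), Rc3h1 12-fold, Zfp36l2 9.24-fold and Zfp36l1 9.19-fold, while Khsrp was 2.35-fold higher (1.23 ± 0.17, 0.00172). The Elavl1 difference (−0.49 ± 0.12) was lost without either MEF cytoplasm library (0.111 and 0.108). Between naive and primed cytoplasm 5 were called, against 43.8% of genes (21.6% lower), all lower in naive cells, among them Zfp36 (−2.49 ± 0.27, 0.00145) and Zfp36l1 (−1.77 ± 0.29, 0.00494). Pum2, Rc3h1 and Rc3h2 were no longer called there without either primed cytoplasm library (adjusted p = 0.0872 to 0.196), and Zfp36l1 was not without replicate 1 (0.0794). Khsrp was called higher without naive replicate 2 (0.65, 3.87e-05) and Zfp36l2 lower without naive replicate 1 (−0.60, 0.0167). Both were called with all groups of the table in 1 fit (edgeR adjusted p = 0.0211 and 0.0175). The transcripts that were most enriched in naive P-bodies were thus among those that were scarcer in naive than in primed cytoplasm, and both comparisons use the naive cytoplasm libraries.

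On day 3 of control reprogramming 7 of the 8 differed from MEFs in cytoplasm, against 69.3% of genes. Zfp36l1 was higher (log2 fold change 1.22 ± 0.08, edgeR adjusted p = 1.37e-09) and so was Khsrp (0.67 ± 0.08, 8.71e-07), whereas Rc3h2 (−1.64 ± 0.07, 1.15e-11), Rc3h1 (−1.19 ± 0.10, 1.97e-08), Pum2 (−0.59 ± 0.07), Zfp36l2 (−0.50 ± 0.07) and Zfp36 (−0.40 ± 0.13, 0.0123) were lower. The Zfp36 call was lost without MEF cytoplasm replicate 2 (0.0804) or day 3 cytoplasm replicate 2 (0.106), and with all groups of the table in 1 fit (0.0798). The Nudt21 knockdown differed from the day 3 control in 6 of the 8, against 49.6% of genes. Rc3h1 rose 3.30-fold, from 50.9 and 42.0 CPM to 155 and 155 CPM (1.72 ± 0.09, 5.65e-11), and Rc3h2 (0.56 ± 0.08) and Khsrp (0.41 ± 0.09) rose as well, while Zfp36l2 (−0.94 ± 0.09), Zfp36l1 (−0.81 ± 0.09) and Zfp36 (−0.43 ± 0.14, 0.0195) fell. The Zfp36 call was lost with DESeq2 (0.0674) and without knockdown cytoplasm replicate 2 (0.0996) or control cytoplasm replicate 1 (0.171). With all groups of the table in 1 fit both it (0.141) and Khsrp (0.0642) lost their call.

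Ribosome occupancy was read as the level in polysomes over that in total RNA. In control cells 4 of the 8 transcripts were called, 1 higher and 3 lower in polysomes, against 42.9% of 15411 genes (18.8% higher and 24.1% lower), and in degron cells 5 were called, 3 higher and 2 lower, against 50.9% of 15638 genes (24.0% and 26.8%). Khsrp had the lowest occupancy of the 8. It was at 262, 258 and 266 CPM in control total RNA and at 145, 130.01 and 120.1 CPM in polysomes, and at 235, 243 and 242 CPM against 127, 127 and 129 CPM in degron cells. The fractions were far apart in both, with log2 fold changes of −1.16 ± 0.07 (edgeR adjusted p = 4.28e-10) and −1.10 ± 0.04 (4.31e-16). Khsrp was thus lower both in P-bodies than in cytoplasm and in polysomes than in total RNA.

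Rc3h2 was the 1 transcript called higher in polysomes both with and without dTAG-13. Control cells had 35.9, 31.9 and 29.3 CPM in total RNA and 52.8, 51.0 and 40.6 CPM in polysomes (0.41 ± 0.09, edgeR adjusted p = 0.00150). Degron cells had 22.0, 26.2 and 24.2 CPM against 40.9, 44.9 and 47.6 CPM (0.69 ± 0.07, 1.21e-08). The total and polysome libraries did not overlap in either. Rc3h1 was at 30.1, 27.5 and 24.1 CPM in control total RNA and 30.0, 33.0 and 29.5 CPM in polysomes (0.01 ± 0.08, 0.941), and at 23.1, 21.5 and 24.3 CPM against 27.8, 32.6 and 32.4 CPM in degron cells (0.24 ± 0.07, 0.00501).

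Pum2 was at 209.9, 204 and 174 CPM in control total RNA and 236, 225 and 210.4 CPM in polysomes, a log2 fold change of 0.02 ± 0.07 after normalization (edgeR adjusted p = 0.842). In degron cells it was at 169.97, 166 and 176 CPM against 212, 213 and 213 CPM (0.14 ± 0.04, 0.00923), a call that was lost with all groups in 1 fit (0.0650). Zfp36l2 was lower in polysomes in both groups, at 60.5, 58.1 and 51.9 CPM against 53.1, 50.6 and 48.4 CPM in control cells (−0.33 ± 0.07, 0.00109) and at 58.0, 54.2 and 56.0 CPM against 51.4, 52.4 and 53.7 CPM in degron cells (−0.28 ± 0.05, 1.17e-04). Its libraries overlapped in control cells and did not in degron cells. The fitted changes lie below the ratios of CPM because the normalization shifted them by −0.17 and −0.18, and relative to library totals Zfp36l1 in both groups and Elavl1 in degron cells had the other sign without a call.

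Elavl1 was at 152, 146 and 136 CPM in control total RNA and 151, 144 and 121 CPM in polysomes, a log2 fold change of −0.23 ± 0.07 (edgeR adjusted p = 0.0151) that was lost without polysome replicate 3 (0.0739) or total replicate 1 (0.0600). In degron cells it was at 129, 129 and 130.4 CPM against 142, 148 and 146 CPM (−0.01 ± 0.04, 0.852). Zfp36l1 overlapped between fractions in both groups, at 34.6 to 39.7 CPM against 33.5 to 42.1 CPM in control cells (−0.13 ± 0.08, 0.210) and 34.7 to 39.0 CPM against 36.6 to 41.6 CPM in degron cells (−0.05 ± 0.06, 0.532). Zfp36 was likewise not called, at 7.84 to 10.4 CPM against 10.2 to 10.97 CPM (0.03 ± 0.12, 0.886) and at 11.5 to 12.9 CPM against 13.3 to 16.0 CPM (0.04 ± 0.09, 0.743).

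**Figure D3:**
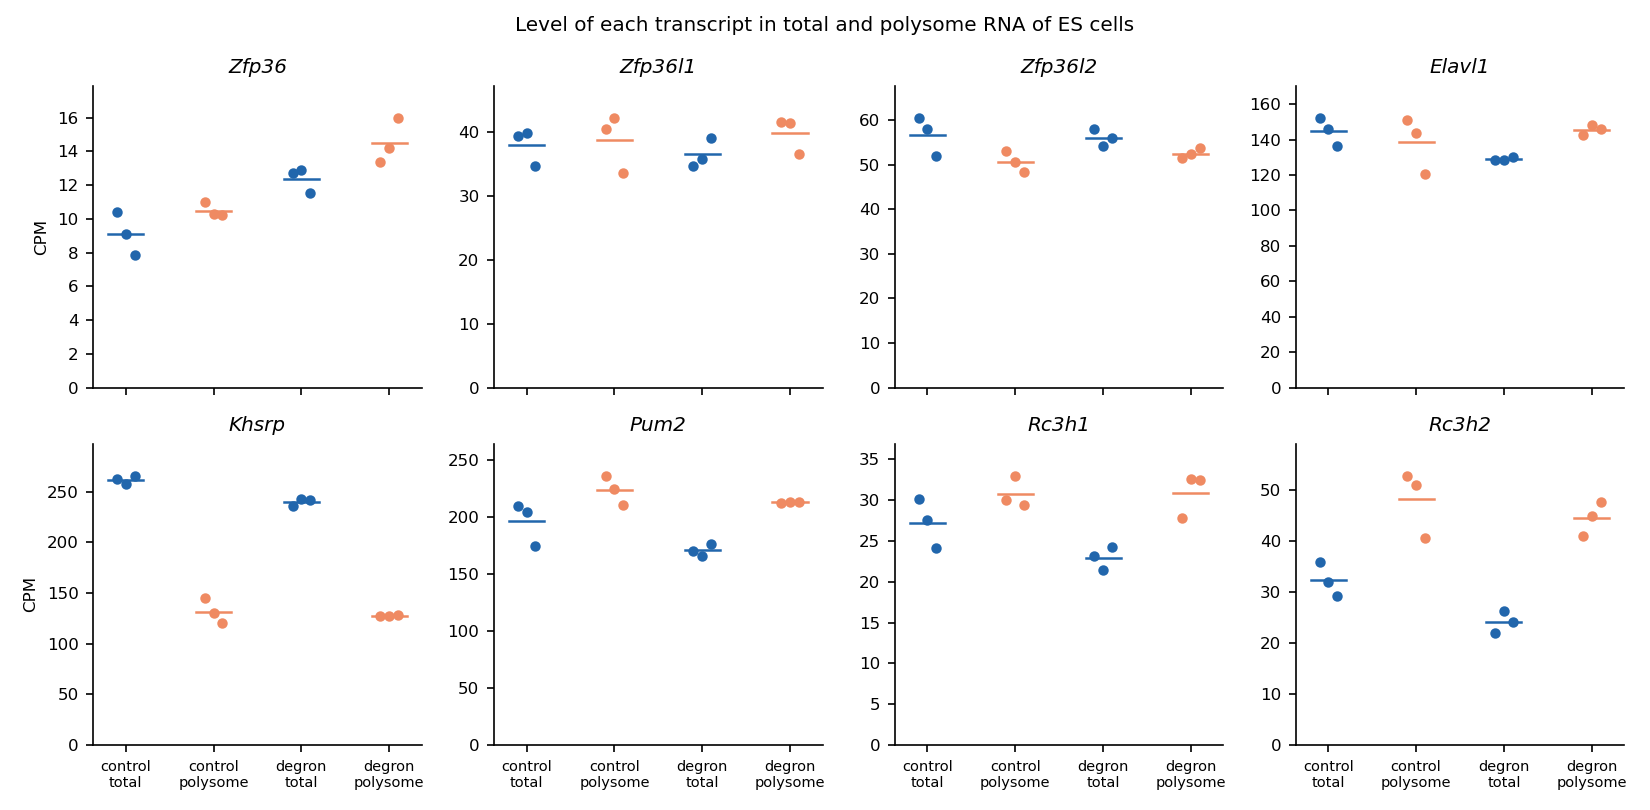
CPM of each transcript in the 3 total RNA (blue) and 3 polysome (orange) libraries of control and dTAG-13-treated (degron) ES cells, on axes that start at 0, with a dash for the mean. Khsrp polysome points lie far below the total RNA points in both groups (120.1 to 145 CPM against 235 to 266 CPM), and Rc3h2 polysome points lie above them.

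The change in occupancy between degron and control cells was called for none of the 8 (2 had an unadjusted p under 0.05), and edgeR called 0 of 16345 genes (0.0%), of which 843 had an unadjusted p under 0.05; DESeq2 called 4 genes and none of the 8. The largest changes were those of Rc3h2 (0.28 ± 0.13, 95% interval 0.02 to 0.54), Rc3h1 (0.23 ± 0.12, −0.01 to 0.47) and Elavl1 (0.22 ± 0.09, 0.04 to 0.40), each with an adjusted p of 0.879. The interval of Khsrp was −0.09 to 0.21. The fitted changes of the 8 ran from 0.01 to 0.28, with a median of 0.09 against −0.01 over all genes. Their common direction was not tested. In total RNA, degron and control cells differed in 1 of the 8, against 3.31% of genes (2.07% lower): Rc3h2 was lower in degron cells (log2 fold change −0.42 ± 0.09, edgeR adjusted p = 0.0261). This call was lost without degron total replicate 1 or 3 or control total replicate 1 or 2 (0.0845 to 0.161), and without control total replicate 3 it stood beside calls of Zfp36, Elavl1, Pum2 and Rc3h1, where 22.2% of all genes were called. Zfp36 had the largest rise, from 10.4, 9.09 and 7.84 CPM to 12.7, 12.9 and 11.5 CPM, which did not overlap (0.44 ± 0.12, 0.0589), and DESeq2 called it (0.0304).

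A list of 38 other genes of 3′ UTR-binding proteins, such as CPEB, CELF, FXR and IGF2BP family members, gave a comparison for the 8. Genes of this list are named where they changed most among those with a mean of at least 10 CPM. In naive cells 19 of the 37 tested were higher in P-bodies and 3 lower, where 22.6% and 15.4% of all genes were, with a median log2 fold change of 0.95. In primed cells 14 were higher and 7 lower of 38 (median 0.06; 26.5% and 24.2% of all genes), and in MEFs 10 were higher and 15 lower of 37 (median −0.30; 26.6% and 28.7%). The Nudt21 knockdown gave 2 higher and 14 lower of 35 (9.04% and 12.8% of all genes), and the Ago2 knockout 2 higher and 0 lower of 38 by edgeR (5.47% and 1.05% of all genes), with 16 at an unadjusted p under 0.05 and 8 called by DESeq2. Zc3h12c, a gene of the Regnase family, had the largest rise in naive cells (93.6 ± 4.1 CPM in P-bodies and 7.96 ± 6.3 CPM in cytoplasm, SD, n = 2; log2 fold change 3.79 ± 0.50, edgeR adjusted p = 0.00345). Below a mean of 10 CPM, Elavl4, a neuronal ELAV gene, rose more (18.6 ± 0.76 against 0.763 ± 0.53 CPM; 4.83 ± 0.40, 8.40e-04). In primed cells it was Qk, the KH-domain protein Quaking (130.0 ± 7.4 against 38.5 ± 2.0 CPM; 1.79 ± 0.09, 6.58e-09). Fxr2, a paralogue of the fragile X protein gene, was the lowest in both (−0.66 ± 0.11 in naive and −0.96 ± 0.08 in primed cells). Elavl2, a neuronal relative of Elavl1, had the largest rise in the Ago2 knockout (58.3 ± 3.6 against 14.7 ± 2.5 CPM; 1.95 ± 0.26, 0.00380).

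In MEF P-bodies the same list ran from Tial1, which encodes a stress granule protein (0.996 ± 0.11, edgeR adjusted p = 5.77e-05), to Ptbp1, which encodes a splicing and UTR-binding protein (−1.71 ± 0.16, 2.24e-05). Samd4b, a Smaug homologue, was the 1 gene of the 36 tested that edgeR called in the day 3 control (−1.31 ± 0.15, 0.0495), where DESeq2 called 8, and the lowest in the Nudt21 knockdown (−1.48 ± 0.17, 5.17e-04), where Fxr1 was the highest (0.53 ± 0.10, 0.00448). In polysomes 1 of 38 was higher and 13 lower in control cells (18.8% and 24.1% of all genes), and 7 were higher and 15 lower in degron cells (24.0% and 26.8%). The extremes were Nanos1 (0.59 ± 0.11) and Ptbp1 (−0.96 ± 0.06) in control cells, and Tia1 (0.39 ± 0.06) and Igf2bp3 (−0.98 ± 0.05) in degron cells. For a change in occupancy, edgeR and DESeq2 called none of the 38, and 6 had an unadjusted p under 0.05 in edgeR.

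A list of 35 mRNAs chosen as AU-rich (immediate early, cytokine and growth genes) was followed next. Their 3′ UTRs were not searched for the elements, and which proteins bind them was not tested. In naive P-bodies 6 were higher and 1 lower of 26 tested, where 22.6% and 15.4% of all genes were, and in primed P-bodies 6 were higher and 12 lower of 27 (26.5% and 24.2% of all genes). Among those with a mean of at least 10 CPM, the widest fall in primed cells was that of Myc, from 60.8 ± 8.9 CPM in cytoplasm to 13.7 ± 1.8 CPM in P-bodies (SD, n = 2; −2.12 ± 0.14, edgeR adjusted p = 7.16e-08). Nfkbiz, at a lower level, fell further there (9.68 ± 0.95 to 1.85 ± 0.26 CPM; −2.35 ± 0.26, 7.42e-06). In naive cells Myc was called in the other direction at a low level (2.68 ± 0.38 CPM in P-bodies and 0.644 ± 0.58 CPM in cytoplasm; 2.28 ± 0.65, 0.0419). In MEFs 13 were higher and 8 lower of 33 (26.6% and 28.7% of all genes), from, at a mean of at least 10 CPM, the chemokine gene Ccl2 (1.22 ± 0.13) to the hypoxia factor gene Hif1a (−1.52 ± 0.08). Hif1a had the opposite direction in primed cells (0.47 ± 0.06, 4.54e-05) and in naive cells (0.69 ± 0.09, 0.00410). In naive cells the cyclin gene Ccnd1 rose most among those with a mean of at least 10 CPM (1.27 ± 0.17, 0.00397) and the growth factor gene Vegfa was lower (−0.79 ± 0.23, 0.0445).

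By edgeR, none of the AU-rich mRNAs was called in the day 3 control (33 tested, 5 at an unadjusted p under 0.05, 3 called by DESeq2) or the Ago2 knockout (26 tested, 1 at an unadjusted p under 0.05, 0 called by DESeq2). The Nudt21 knockdown gave 2 higher and 6 lower of 33 (9.04% and 12.8% of all genes), from, at a mean of at least 10 CPM, Ccnb1 (0.42 ± 0.09) to Myc (−0.90 ± 0.14). In polysomes 1 was higher and 10 lower of 29 in control cells (18.8% and 24.1% of all genes), with a median of −0.27 against 0.02 over all genes, and 2 were higher and 10 lower of 28 in degron cells (median −0.25 against 0.02). Hif1a was the lowest of them in both groups (−0.81 ± 0.08 and −0.69 ± 0.05). Odc1 (0.19 ± 0.06) and Vegfa (0.22 ± 0.05) were the highest.

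The 8 transcripts differ in base composition and length, which the choice of members did not use. The GC content of the longest coding transcript was lowest in Rc3h2 (38.8%), Rc3h1 (41.7%) and Pum2 (42.2%), intermediate in Elavl1 (45.7%) and Zfp36l1 (49.0%), and highest in Zfp36 (54.1%), Zfp36l2 (54.8%) and Khsrp (57.3%). Spearman's rho between GC content and the P-body log2 fold change over the 8 was −0.64 in naive cells, −0.67 in primed cells, −0.55 in MEFs, −0.81 in both day 3 groups and −0.93 in the Ago2 knockout. Over all genes with a value it was −0.63 (14171 genes) in naive cells, −0.39 in primed cells, −0.05 in MEFs and −0.49 in the Ago2 knockout. In the day 3 control and Nudt21 knockdown it was −0.24 and −0.30. For transcript length the signs were the same only in naive cells, with 0.36 over the 8 and 0.24 over all genes. They differed in primed cells (0.33 and −0.03), MEFs (0.24 and −0.49) and the day 3 control (0.62 and −0.37). The Nudt21 knockdown (0.57 and −0.42) and the Ago2 knockout (0.60 and −0.22) differed as well. So did the polysome changes in control cells (0.24 and −0.38) and degron cells (0.64 and −0.29). For GC content and the control polysome change rho was −0.71 over the 8 and −0.09 over 14185 genes. These coefficients are descriptions over points that share libraries, and GC content, transcript length (2790 bases in Zfp36 to 11006 bases in Rc3h1) and gene family go together in so few transcripts.

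**Figure D4:**
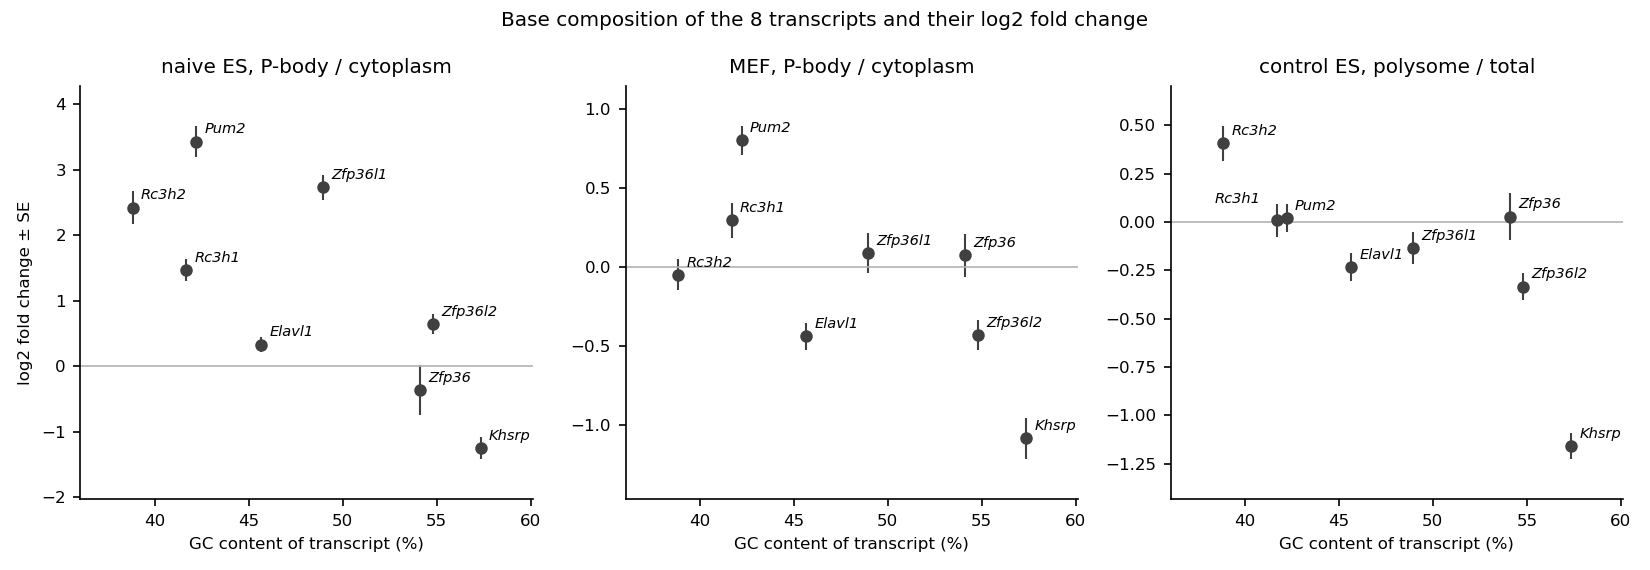
The GC content of each transcript (%) against its log2 fold change ± SE in naive ES P-bodies, MEF P-bodies and control polysomes. Khsrp, at 57.3% GC, is the lowest point in each panel, and Pum2 (42.2%) is the highest in both P-body panels while Rc3h2 (38.8%) is the highest in polysomes.

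The genes whose level was most like that of each transcript were found by the Pearson correlation of log2 CPM over the 20 libraries of the P-body table, given as a description since these libraries share cell types and fractions. Pum2 was closest to Ankrd12 (r = 0.97) and had Zc3h12c, the gene above, among its 3 nearest (0.97). Khsrp was closest to Cherp (0.97), Smarca4 (0.97) and Sympk (0.96). Rc3h2 was closest to Yod1 (0.97), Zfp36l1 to Klf7 (0.97), Rc3h1 to Fam177a2 and Fam177a (0.96 each, with identical values in the table), Zfp36l2 to Svep1 (0.95), Zfp36 to Pxdc1 (0.94) and Elavl1 to Cstf2t (0.92). For 5 of the 8, an annotated gene on the opposite strand overlaps exonic bases, from 63 bases at Khsrp to 1672 bases at Zfp36l1 (Gm26669). The P-body libraries outside the Ago2 knockout were made with a kit that does not mark strand, so reads of these overlaps cannot be assigned to 1 gene. Pum2, Rc3h1 and Rc3h2 have no such overlap.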

How the data were processed

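The authors deposited estimated counts per gene, of which 5.05% to 25.74% by library were not whole numbers. Per the labels' processing notes and the study's methods, P-body and cytoplasm reads were aligned to mm10 with HISAT2 and counted over refGene exons with featureCounts, and the other 2 tables came from salmon. The annotation release of the Ago2 knockout table is not given in the sources used here. For P-body data the methods name salmon only with snapTotal-seq, a random-primed library method. Whether the Ago2 knockout libraries were made in that way is not stated. Tables were fitted separately. Counts were rounded, a gene was kept if its sum across the fitted libraries reached 10 reads, and each comparison was tested with the quasi-likelihood test of edgeR 4.0.16 (TMM, Benjamini-Hochberg adjustment over all genes) in R 4.3.3. Enrichments were compared with an interaction term. CPM values use library totals. Alternatives were DESeq2 1.42.0, its size factors, other filters, a replicate block, 1 fit over all groups, and leaving out each library. The code was tested on simulated counts. Members and lists were chosen with earlier results of these data known. From the lists, the called gene with the largest change in each direction and a mean of at least 10 CPM was named, and for likeness the 3 highest correlations. Coordinates and 3′ UTRs are from mm10 with GENCODE M21. Depth was 6769727 to 31185799 reads per library. The remaining 10 tables were not used.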

Additional observations from a re-analysis of the deposited data

Results flagged for a closer look

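In 3 comparisons of P-body enrichment between cell types, an interaction term in edgeR was past the threshold for at least 1 of the 8 transcripts. Between naive and primed ES cells the enrichment was larger in naive cells for Rc3h2 (log2 difference 1.63), Pum2 (1.58), Rc3h1 (1.26) and Zfp36l1 (1.06). Between naive ES cells and MEFs it was larger in naive cells for Zfp36l1 (2.45), Pum2 (2.43), Rc3h2 (2.28), Rc3h1 (0.98), Zfp36l2 (0.88) and Elavl1 (0.58). Between the day 3 reprogramming control and MEFs it was larger on day 3 for Rc3h2 (0.72). Of all genes, 25.3%, 41.3% and 14.7% were called in these comparisons, in this order. The Zfp36l1 call against primed cells, the Elavl1 call and the day 3 Rc3h2 call were each lost when certain single libraries were left out. The normalization of the naive comparison shifted its log2 fold changes by 0.22 relative to library totals, and no P-body fold change of the 8 changed its sign with it. With 2 or 3 libraries per group, no group was large enough for a test of single outlying libraries.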

How the results depend on the processing

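Another tool, scaling, filter, block or fit was used to recompute 856 values. Of these, 825 kept their side of the threshold, 19 passed it newly and 12 no longer did. With 1 library left out, 734 kept their side, 32 passed newly, 49 no longer did and 1 was called in the other direction. Called values that kept their side also kept their direction. Uncalled values that changed sign and stayed uncalled are counted as keeping their side. The 1 called in the other direction was the Zfp36l1 log2 fold change in the day 3 control without P-body replicate 2 (−0.27, and 0.41 without replicate 1). The cause was not tested. With 1 library left out, a group's lone library was taken to vary like the others.

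Counts of called transcripts that moved by over 1.5 times were these. In the day 3 control, 1 call became 4 with DESeq2, 3 with no filter and 4 with all groups in 1 fit, and 0 to 7 with 1 library left out. In the Nudt21 knockdown, 4 became 2 with all groups in 1 fit and 2 to 5 with 1 library left out. In the Ago2 knockout, 2 became 0 with DESeq2 size factors, and 0 to 4 with 1 library left out. In total RNA, 1 became 2 with DESeq2, no filter or all groups in 1 fit, 0 with the replicate block, and 0 to 5 with 1 library left out. For the difference between the Nudt21 knockdown and the day 3 control, 0 became 1 with DESeq2 and with no filter, and 0 to 4 with 1 library left out. Leaving out 1 library gave 2 to 5 in MEFs (5 in full), 0 to 2 for day 3 control minus MEF (1 in full) and 1 to 6 for naive against primed cytoplasm (5 in full).

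Per the study's methods, both fractions of a preparation came from 1 lysate, for P-bodies as for polysomes. The labels do not say that equal numbers mark the same preparation, so the fits above have no replicate block. Deviations of same-numbered P-body and cytoplasm libraries correlated at −0.06 in naive cells, 0.08 in primed cells, −0.004 in MEFs, 0.17 and 0.20 on day 3 and 0.54 in the Ago2 knockout, and polysome and total libraries at −0.002 to 0.33. With the replicate block, 4178 genes were called in the Ago2 knockout (1095 without it) and 3 of the 8 (Rc3h1 added, adjusted p = 0.0177), and total RNA lost Rc3h2 (0.0867); no other call of the 8 changed. With 2 libraries a group, differences within the intervals given could not be told from none, and Zfp36 in naive cells rests on 23 to 61 reads a library.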
